A study of Mus musculus with 24 samples.

Results

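Endothelial identity genes were followed in cultured alveolar epithelial cells (AECs). The 8 genes were Pecam1, Cdh5, Kdr, Tek, Cldn5, Vwf, Emcn, and Ednrb, chosen by name as a gauge of endothelial carry-over, and all 8 were found among the 55426 entries of the count table. AECs came from Krt8+/+ and Krt8-/- mice, in which the gene of keratin 8 is intact or deleted, and were sequenced at D0 and at D1, D3, and D7 of 2D culture. Each of the 8 groups of genotype and day held 3 libraries, 1 for each of 3 biological replicates, 24 in all. The labels give each replicate number 1 batch, coded as a date, that holds libraries of both genotypes on every day. No treatment other than culture is named. The sources used here give no strain, age, or number of mice per replicate, and do not say whether endothelial cells were removed. The smallest library held 10184439 counts and the largest 19483386. Levels are given as counts and as TMM-scaled counts per 1e+06 counts (CPM) in which TMM corrects library totals for their composition.

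The endothelium lines blood and lymph vessels, and the capillaries of the lung lie against the alveolar epithelium. Its cells are held together by VE-cadherin, PECAM1, and claudin-5, and they respond to vascular endothelial growth factor (VEGF) through VEGFR2 and to angiopoietins through TIE2. AECs in turn are a known source of VEGF-A in the lung. In bulk libraries fewer cells of a type and less RNA per cell cannot be told apart.

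The genes are spread over the mouse genome (GRCm38, GENCODE M21 gene bounds). Pecam1 lies at chr11:106654217-106750628, Cdh5 at chr8:104101625-104144511, Cldn5 at chr16:18776847-18778262, and Kdr at chr5:75932827-75978458. Tek lies at chr4:94739289-94874976, Ednrb at chr14:103814625-103844402, Vwf at chr6:125546774-125686679, and Emcn at chr3:137341067-137432185. Pecam1, Kdr, and Ednrb are on the minus strand and the others on the plus strand. The antisense gene Gm29682 overlaps the span of Cdh5 but shares 0 exon bases with it and had 0 CPM in every library.

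Many endothelial genes carry sites for ETS transcription factors, whose core motif is GGAA. RefSeq promoter sequences (GRCm38.p6) were held here for 5 of the 8 genes. Those of Kdr, Tek, and Cldn5 are shown because these 3 genes followed different courses in culture, as described below. Each is the 250 bases before the RefSeq start, 5′ to 3′ on the gene's own strand, with GGAA or its reverse complement TTCC in capitals. The regions are chr5:75978456-75978705 (minus strand), chr4:94739039-94739288 (plus strand), and chr16:18776597-18776846 (plus strand).
Kdr: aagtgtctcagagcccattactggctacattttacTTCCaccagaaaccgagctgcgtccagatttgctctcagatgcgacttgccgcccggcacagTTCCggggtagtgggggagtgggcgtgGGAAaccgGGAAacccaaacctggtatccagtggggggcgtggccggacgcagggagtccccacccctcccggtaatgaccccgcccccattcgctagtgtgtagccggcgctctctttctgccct
Tek: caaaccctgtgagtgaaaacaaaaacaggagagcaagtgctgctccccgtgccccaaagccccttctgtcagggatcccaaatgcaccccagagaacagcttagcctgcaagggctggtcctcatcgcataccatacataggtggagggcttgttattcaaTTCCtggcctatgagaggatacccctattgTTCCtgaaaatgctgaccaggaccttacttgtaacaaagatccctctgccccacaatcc
Cldn5: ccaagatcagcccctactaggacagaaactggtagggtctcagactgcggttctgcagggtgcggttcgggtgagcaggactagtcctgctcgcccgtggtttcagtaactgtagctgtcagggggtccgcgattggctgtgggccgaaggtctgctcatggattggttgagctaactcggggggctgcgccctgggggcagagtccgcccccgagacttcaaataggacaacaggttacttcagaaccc
The Kdr window held 4 such sites, the Tek window 2, and the Cldn5 window 0. The Emcn and Ednrb windows held 4 and 2. Of 27025 promoter windows of the same length, 93.4% held at least 1 site, with a median of 3. A match is a run of letters and not a measured binding site.

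The 8 genes were scarce in every library. Their counts added up to between 170 and 491 in a library at D0, 60 to 160 at D1, 125 to 307 at D3, and 31 to 79 at D7. At D0 this was 0.00141% to 0.00275% of a library, and at D7 it was 0.000265% to 0.000535%. Over the 24 libraries Kdr had 2399 counts, Tek 536, Vwf 420, Pecam1 329, Ednrb 108, Cdh5 56, Cldn5 49, and Emcn 17. Kdr and Tek had counts in all 24 libraries, whereas Emcn was at 0 in 19 of them. Pecam1, Kdr, Tek, Vwf, and Ednrb passed the filter on low counts and were tested. Cdh5, Cldn5, and Emcn did not pass and are described by their counts. The labelled cell type was checked at D0. The summed level of 6 epithelial genes was then 150892 to 224337 CPM, mostly Sftpc, the surfactant protein of AEC2s. The 8 endothelial genes summed to 18.8 to 35.3 CPM in the same libraries. The epithelial sum was lower on later days, at 14321 to 69321 CPM at D1, 3540 to 5329 at D3, and 2482 to 6065 at D7. The 6 genes did not move together. In Krt8+/+ AECs the log2 difference of Sftpc from D0 was -2.09 at D1, -9.39 at D3, and -11.9 at D7. That of Krt18, a keratin gene of the same list, was 2.39, 2.61, and 3.52 (edgeR adjusted p = 1.0e-07, 3.0e-08, and 5.7e-10). The lower sum is therefore not a measure of fewer epithelial cells.

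**Figure D1:**
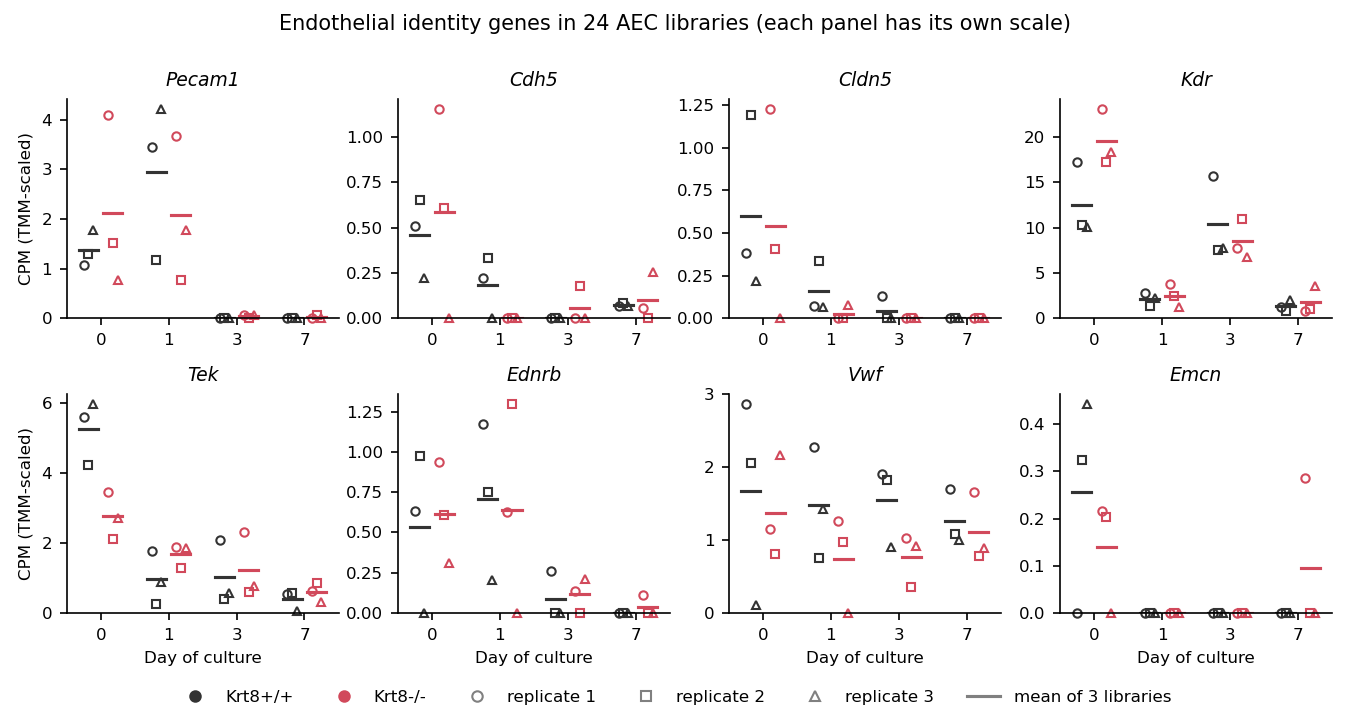
Level of each of the 8 endothelial identity genes (vertical axes, TMM-scaled CPM, each panel with its own scale) on days 0, 1, 3, and 7 of culture, with 1 symbol per library, colour for genotype, symbol shape for replicate, and a bar at the mean of 3 libraries. Kdr is low at D1, high again at D3, and low at D7 in both genotypes, whereas Pecam1 is near 0 from D3.

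The junction and adhesion genes had few counts from D3 on. Pecam1 encodes PECAM1 (CD31), an adhesion molecule of endothelial cell contacts that is also found on platelets and leukocytes. In Krt8+/+ libraries its counts were 17, 12, and 16 in replicates 1, 2, and 3 at D0 and 47, 14, and 62 at D1, and 0 in all 3 libraries at both D3 and D7. In Krt8-/- libraries they were 57, 15, and 10 at D0, 41, 12, and 23 at D1, 1, 0, and 1 at D3, and 0, 1, and 0 at D7. Pecam1 was thus still detected in all 6 libraries at D1 and had 2 counts in 6 libraries at D3, with no overlap between D3 or D7 and the earlier days.

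With the group's 0 counts set to a floor of 3, Pecam1 in Krt8+/+ AECs was at least 21.3-fold lower at D3 and at least 18.5-fold lower at D7 than at D0 (edgeR adjusted p = 1.8e-04 and 2.0e-04). In Krt8-/- AECs the ratio of summed counts to D0 was 0.0197 at D3, with a 95% counting interval of 0.00235 to 0.0736, and 0.00973 at D7, with an interval of 0.000243 to 0.0558 (edgeR adjusted p = 3.0e-04 and 1.4e-04). These intervals and floors cover counting error only. From D1 to D3, a step tested after the values had been seen, Pecam1 was at least 49.1-fold lower in Krt8+/+ AECs, and the ratio in Krt8-/- AECs was 0.0229 with an interval of 0.00272 to 0.0855 (edgeR adjusted p = 1.8e-04 and 0.0013). Summed over 7 leukocyte and lymphocyte genes, the level was 17.2 to 38.1 CPM at D0, 5.37 to 32.9 at D1, and 2.04 to 14.0 at D3, and the part of such cells in the Pecam1 counts was not tested. At D1 no difference of Pecam1 from D0 was detectable. The log2 difference of Pecam1 was 1.10 (SE 0.72, edgeR adjusted p = 0.21) in Krt8+/+ AECs, with 2 of 3 replicates higher, and -0.05 (SE 0.71, edgeR adjusted p = 0.96) in Krt8-/- AECs.

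Cdh5 encodes VE-cadherin, the cadherin of endothelial adherens junctions. Its counts were 8, 6, and 2 in Krt8+/+ and 16, 6, and 0 in Krt8-/- libraries at D0. From D1 on no library held more than 4 counts, and the 6 libraries of a day together held 7 at D1, 3 at D3, and 8 at D7. Cldn5 encodes claudin-5, the main claudin of endothelial tight junctions, and had 6, 11, and 2 counts in Krt8+/+ and 17, 4, and 0 in Krt8-/- libraries at D0. The 6 libraries together held 7 Cldn5 counts at D1, 2 at D3, and 0 at D7. At D7 Cldn5 was at least 7.80-fold lower than at D0 in Krt8+/+ and at least 8.77-fold lower in Krt8-/- AECs by counts alone. For both genes the replicate 3 library of Krt8-/- AECs had 0 counts at D0 already. With no filter on low counts, edgeR called Cdh5 lower than at D0 at D3 in Krt8+/+ and at D1 in Krt8-/- AECs, and Cldn5 lower at D7 in both genotypes and at D3 in Krt8-/- AECs. Of 32971 genes in that fit, 9188 were called at D3 and 10295 at D7 in Krt8+/+ AECs. In Krt8-/- AECs 8534 were called at D1, 8889 at D3, and 10241 at D7.

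Kdr fell, rose, and fell again. It encodes VEGFR2, the main signalling receptor for VEGF-A. In Krt8+/+ libraries Kdr was at 17.3, 10.3, and 10.1 CPM in replicates 1, 2, and 3 at D0, 2.79, 1.42, and 2.31 at D1, 15.7, 7.58, and 7.77 at D3, and 1.23, 0.829, and 2.05 at D7. In Krt8-/- libraries the levels of Kdr were 23.1, 17.2, and 18.3 CPM at D0, 3.77, 2.46, and 1.25 at D1, 7.75, 11.0, and 6.83 at D3, and 0.801, 1.01, and 3.57 at D7. The lowest Kdr library at D3 (6.83 CPM) was above the highest at D1 (3.77 CPM) and at D7 (3.57 CPM), whichever the genotype.

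Relative to D0, the log2 difference of Kdr in Krt8+/+ AECs was -2.53 at D1 (SE 0.50, edgeR adjusted p = 2.6e-04), -0.28 at D3 (SE 0.46, edgeR adjusted p = 0.62), and -3.18 at D7 (SE 0.52, edgeR adjusted p = 2.4e-05). For Krt8-/- AECs the values were -2.98 at D1 (SE 0.50, edgeR adjusted p = 5.6e-05), -1.20 at D3 (SE 0.46, edgeR adjusted p = 0.035), and -3.43 at D7 (SE 0.51, edgeR adjusted p = 8.4e-06). Each of the 3 replicates was lower than at D0 in all 6 of these Kdr comparisons. The call at D3 in Krt8-/- AECs was lost without any 1 of the 3 replicates (edgeR adjusted p = 0.15, 0.082, and 0.050 without replicates 1, 2, and 3) and with unscaled library totals (edgeR adjusted p = 0.25). Under those totals the D3 value of Kdr in Krt8+/+ AECs turned to 0.32 (edgeR adjusted p = 0.57). They moved the median of all tested genes by 0.46 at D1, 0.60 at D3, and 0.45 at D7 in Krt8+/+ AECs on the log2 scale, and 7184 of 10299 calls were then upward at D1, 8201 of 10985 at D3, and 7507 of 11317 at D7, against 4730 of 9874, 4711 of 9736, and 5158 of 10611 with TMM scaling.

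The steps between culture days were tested after the values had been seen. From D1 to D3 the log2 difference of Kdr was 2.24 (SE 0.50, edgeR adjusted p = 0.0023) in Krt8+/+ and 1.78 (SE 0.49, edgeR adjusted p = 0.012) in Krt8-/- AECs, higher in 3 of 3 replicates of each genotype. In this step 26.3% of all tested genes were called in Krt8+/+ and 23.6% in Krt8-/- AECs, with 14.4% and 13.4% of all genes called upward and 11.9% and 10.2% downward. From D3 to D7 the log2 difference of Kdr was -2.90 (SE 0.51, edgeR adjusted p = 0.0014) and -2.24 (SE 0.50, edgeR adjusted p = 0.0052), lower in 3 of 3 replicates of each genotype, where 6.58% and 10.5% of all genes were called and 3.47% and 6.15% downward. Of the 5 members tested, Kdr was the 1 called higher from D1 to D3 and the 1 called lower from D3 to D7, in either genotype. Tek was not called from D3 to D7, but its summed counts were also lower. The ratio for Tek was 0.385 in Krt8+/+ (counting interval 0.204 to 0.690) and 0.484 in Krt8-/- AECs (0.294 to 0.781). It was lower in 2 of 3 replicates of each genotype. In Krt8-/- AECs the rise of Kdr was not past 0.05 without replicate 2 (log2 difference 1.54, edgeR adjusted p = 0.14). The later fall of Kdr was not past it without replicate 1 or 2 (edgeR adjusted p = 0.071 and 0.15), nor in Krt8+/+ AECs without replicate 2 (edgeR adjusted p = 0.054).

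Tek, which encodes the angiopoietin receptor TIE2, fell without returning at D3. In Krt8+/+ libraries it was at 5.60, 4.22, and 5.98 CPM in replicates 1, 2, and 3 at D0, 1.76, 0.251, and 0.883 at D1, 2.10, 0.389, and 0.567 at D3, and 0.545, 0.581, and 0.0663 at D7. In Krt8-/- libraries Tek was at 3.45, 2.13, and 2.7 CPM at D0, 1.88, 1.3, and 1.87 at D1, 2.33, 0.603, and 0.775 at D3, and 0.629, 0.857, and 0.319 at D7. Every Krt8+/+ library at D0 was above every later Krt8+/+ library, whereas in Krt8-/- libraries D3 overlapped D0.

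The log2 difference of Tek from D0 in Krt8+/+ AECs was -2.43 at D1 (SE 0.69, edgeR adjusted p = 0.0057), -2.37 at D3 (SE 0.69, edgeR adjusted p = 0.0062), and -3.72 at D7 (SE 0.76, edgeR adjusted p = 2.6e-04). The Krt8-/- values were -0.72 at D1 (SE 0.66, edgeR adjusted p = 0.38), -1.16 at D3 (SE 0.67, edgeR adjusted p = 0.16), and -2.20 at D7 (SE 0.71, edgeR adjusted p = 0.012). The Krt8+/+ calls were not past 0.05 without replicate 2 (edgeR adjusted p = 0.062 at D1 and 0.060 at D3) or, at D3, without replicate 3 (edgeR adjusted p = 0.073). The Krt8-/- call at D7 was not past it without replicate 3 (edgeR adjusted p = 0.090). From D1 to D3 Tek did not differ detectably, with log2 differences of 0.06 in Krt8+/+ (95% confidence interval -1.39 to 1.51) and -0.44 in Krt8-/- AECs (-1.85 to 0.97).

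**Figure D2:**
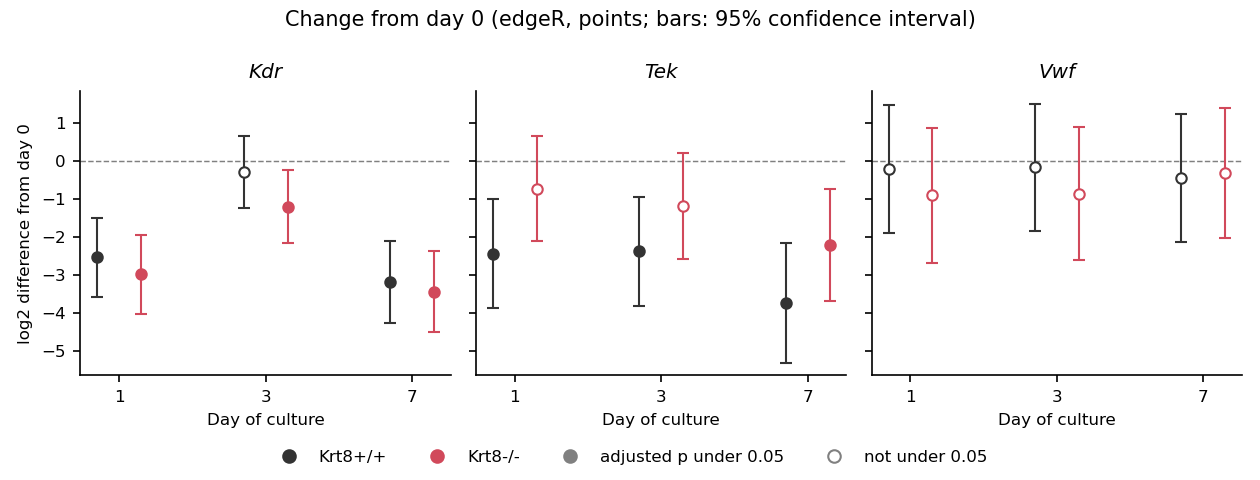
Log2 difference from day 0 (vertical axis) of Kdr, Tek, and Vwf, the 3 tested genes with counts on every day in both genotypes, at days 1, 3, and 7 (horizontal axis), with colour for genotype, bars for the 95% confidence interval, and filled points for an adjusted p under 0.05. Kdr is close to its D0 level at D3 in Krt8+/+ AECs (-0.28) but not at D1 or D7, Tek lies below D0 throughout, and Vwf lies near 0 with wide intervals.

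Ednrb encodes the endothelin B receptor, carried by endothelial cells and by several other cell types. Its counts were 10, 9, and 0 in Krt8+/+ and 13, 6, and 4 in Krt8-/- libraries at D0, and 16, 9, and 3 and 7, 20, and 0 at D1. The 6 libraries together held 9 Ednrb counts at D3 and 2 at D7. At D7 Ednrb was at least 7.80-fold lower than at D0 in Krt8+/+ AECs, where all 3 libraries had 0 counts (edgeR adjusted p = 0.018). In Krt8-/- AECs the ratio of summed Ednrb counts at D7 to D0 was 0.0694, with a counting interval of 0.00793 to 0.281 (edgeR adjusted p = 0.049). Both calls were lost without replicate 1 or 2 (edgeR adjusted p = 0.13 to 0.20), and the second also under DESeq2 (adjusted p = 0.057) and with unscaled totals (edgeR adjusted p = 0.079).

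Vwf encodes von Willebrand factor, a clotting protein stored by endothelial cells and platelets. It was at 2.86, 2.06, and 0.111 CPM in replicates 1, 2, and 3 of Krt8+/+ AECs at D0 and at 1.70, 1.08, and 0.994 at D7, and at 1.15, 0.810, and 2.16 and then 1.66, 0.779, and 0.893 in Krt8-/- AECs. The 6 libraries together held 117, 90, 107, and 106 Vwf counts at D0, D1, D3, and D7. No Vwf difference from D0 was past 0.05 in either genotype, and the log2 differences lay between -0.90 and -0.15. At D7 that of Vwf was -0.44 in Krt8+/+ (95% confidence interval -2.14 to 1.26) and -0.31 in Krt8-/- AECs (-2.01 to 1.40), so that both intervals included 0 and also a 4-fold fall. Emcn, which encodes the capillary and venous sialomucin endomucin, had 17 counts in all, of which 12 were at D0 and 5 in the Krt8-/- library of replicate 1 at D7. The other 19 libraries had 0.

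Of the 8 genes, 5 were tested. In Krt8+/+ AECs 2 of these 5 fell between D0 and D1 (Kdr and Tek) and 2 by D3 (Pecam1 and Tek). By D7 4 of the 5 fell (Pecam1, Kdr, Tek, and Ednrb), and 0 rose in any of the 3 comparisons. Among all 18046 tested genes 54.7%, 54.0%, and 58.8% were called in these comparisons, and 28.5%, 27.8%, and 30.2% were called downward. In Krt8-/- AECs 1 fell by D1 (Kdr), 2 by D3 (Pecam1 and Kdr), and 4 by D7 (the same genes as in Krt8+/+ AECs), where 50.6%, 52.0%, and 58.5% of all genes were called and 26.9%, 26.6%, and 29.9% downward. With calls this common among all genes, the number of endothelial genes called is not a result about them. The 3 comparisons of a genotype also share its D0 libraries. Between D1 and D7 the calls were Pecam1 and Ednrb in Krt8+/+ AECs, with 40.0% of all genes called and 19.7% downward, and Pecam1 in Krt8-/- AECs, with 38.4% and 18.7%. With batch as a block, Ednrb was also past 0.05 in the latter (edgeR adjusted p = 0.040).

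The make-up of the summed counts changed from day to day. Kdr held 64.2% of the 1847 counts of the 8 genes at D0, 28.5% of 648 at D1, 79.7% of 1112 at D3, and 46.3% of 307 at D7. Pecam1 held 6.88% at D0 and 30.7% at D1, and then 0.180% at D3 and 0.326% at D7. The share of Vwf was 6.33% at D0 and 34.5% at D7, while no change in its level was detectable. In every single library at D3 Kdr held 68.5% to 90.5%, and in every library at D1 it held 23.8% to 36.2%. The 8 genes therefore did not keep 1 ratio to each other over the days.

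**Figure D3:**
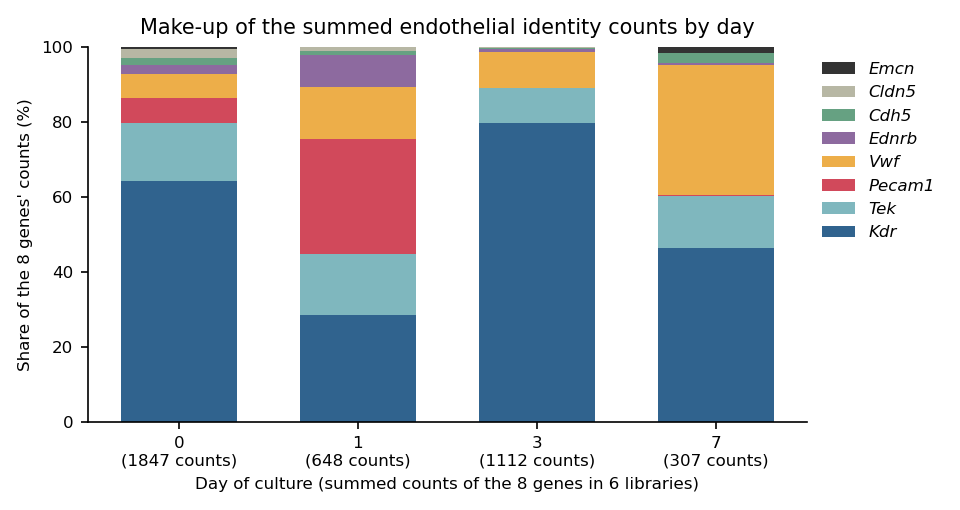
Share of the summed counts of the 8 genes (vertical axis, percent) held by each gene on days 0, 1, 3, and 7 (horizontal axis, 6 libraries summed per day, total counts in brackets). Kdr holds 64.2%, 28.5%, 79.7%, and 46.3%, and Pecam1 holds 30.7% at D1 and under 1% at D3 and D7.

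Per kb of exon length, which allows genes to be set against each other, the order also changed. At D0 Kdr was highest, with a median of 1.91 CPM per kb over 6 libraries (1.12 to 2.56), ahead of Tek at 0.815 (0.451 to 1.27), and the lowest Kdr library lay below the highest Tek library. The next in order were Cldn5 at 0.278 (0 to 0.864) and Pecam1 at 0.226 (0.124 to 0.659), whose ranges overlapped, as did those of the remaining 4. At D1 the first was Pecam1 at 0.421 CPM per kb (0.125 to 0.676), followed by Tek at 0.325 (0.0532 to 0.400) and Kdr at 0.264 (0.138 to 0.417), with overlapping ranges. At D3 Kdr at 0.859 CPM per kb (0.756 to 1.74) stood above Tek at 0.146 (0.0825 to 0.495) without overlap. At D7 Kdr at 0.124 CPM per kb (0.0887 to 0.396) and Tek at 0.119 (0.0141 to 0.182) overlapped again.

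Between genotypes no member passed the test on any day. Of the 5 genes tested, 0 were past 0.05 by edgeR at D0, D1, D3, or D7, 0 had an unadjusted p under 0.05, and DESeq2 called 0. Over all genes edgeR called 0.0277% at D0 and 0.0166% on each other day, so the background was also close to none. The log2 difference of Kdr (Krt8-/- minus Krt8+/+) was 0.63 at D0 (95% confidence interval -0.32 to 1.59), 0.18 at D1 (-0.87 to 1.23), -0.28 at D3 (-1.24 to 0.67), and 0.38 at D7 (-0.71 to 1.46). At D0 Kdr was higher in the Krt8-/- library of all 3 replicates, with overlapping groups. For Vwf the log2 difference was -0.31 at D0, -1.0 at D1 and D3, and -0.17 at D7, with intervals from -2.76 to 1.53 over the 4 days. For Pecam1 it was 0.64 at D0 (-0.90 to 2.17) and -0.51 at D1 (-2.01 to 0.98), and for Ednrb 0.19 (-2.32 to 2.7) and -0.12 (-2.54 to 2.31). Differences of up to 2-fold were within the intervals of every one of these genes on at least 1 day, so a missed threshold does not show equal levels.

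At D0 the genotype groups of Tek did not overlap, and the share of all tested genes without overlap is not given here. The 3 Krt8+/+ libraries lay at 4.22 to 5.98 CPM and the 3 Krt8-/- libraries at 2.13 to 3.45 CPM, a log2 difference of -0.93 (95% confidence interval -2.28 to 0.43, edgeR adjusted p = 1). At D1, D3, and D7 Tek was higher in the Krt8-/- library of all 3 replicates, with log2 differences of 0.78 (-0.65 to 2.22), 0.28 (-1.15 to 1.70), and 0.60 (-1.01 to 2.21). In the test of a change of the genotype difference over the days no member was past 0.05. Tek had an unadjusted p of 0.30 there (edgeR adjusted p = 1), and 0.00554% of all genes were called.

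**Figure D4:**
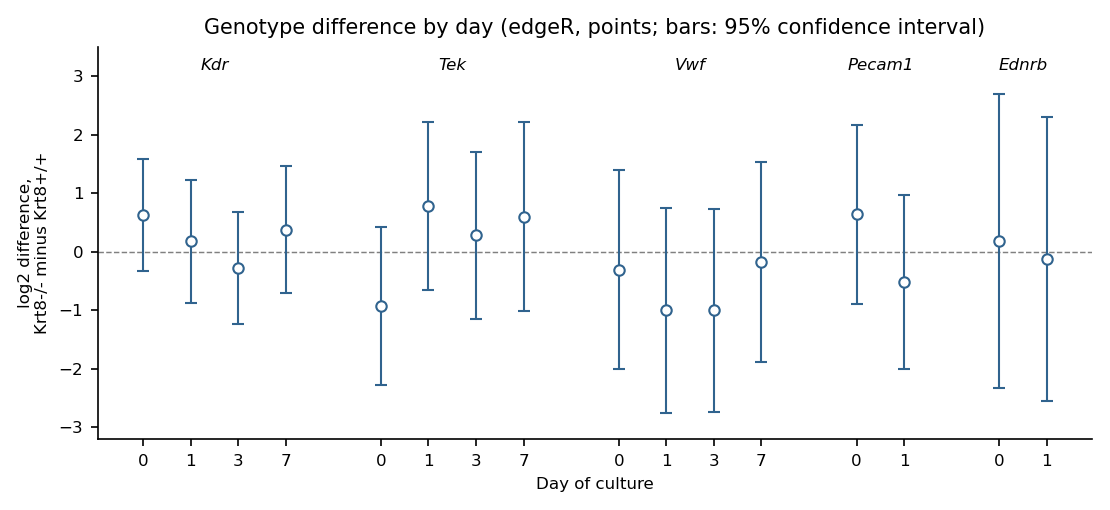
Log2 difference between genotypes (vertical axis, Krt8-/- minus Krt8+/+) of Kdr, Tek, and Vwf on days 0, 1, 3, and 7 and of Pecam1 and Ednrb on days 0 and 1, on which they had counts to compare (horizontal axis), with 95% confidence intervals from edgeR. Each interval includes 0, and Tek is at -0.93 on D0 and above 0 on the later days.

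Replicates differed in ways that touch these values. Xist lay at 62.4 to 79.5 CPM in the Krt8+/+ libraries of replicate 1 and at 5.92 to 12.0 CPM in its Krt8-/- libraries, and summed Y-linked genes lay at 0 to 0.441 CPM and 173 to 191 CPM, so that sex and genotype cannot be told apart within that replicate. In replicates 2 and 3 both genotypes were alike in these genes. The deleted gene itself, Krt8, ranged from 485 to 5092 CPM over the Krt8+/+ libraries and from 21.2 to 47.4 CPM over the Krt8-/- libraries. Without replicate 1, edgeR again called 0 members between genotypes on every day, and the sign of the Pecam1 difference at D0 turned (log2 difference -0.43).

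Other endothelial genes moved in both directions. The 23 further genes listed for endothelium in general summed to 229 to 281 CPM in a library at D0, and 16 of them were tested. At D1, D3, and D7 against D0, 2, 4, and 7 of them rose and 3, 4, and 5 fell in Krt8+/+ AECs. In Krt8-/- AECs 1, 3, and 6 rose and 4, 6, and 6 fell. Among all tested genes 54.7%, 54.0%, and 58.8% were called in Krt8+/+ and 50.6%, 52.0%, and 58.5% in Krt8-/- AECs. With calls this common, the number called is not a result about this list. The median log2 differences of the 16 genes in Krt8+/+ AECs were 0.27, 0.00, and -0.15. Those of all tested genes were 0.00, -0.00153, and 0.00. Between genotypes 0 of the 16 were past 0.05 by edgeR on each day.

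Among those that fell was Tmem100, which encodes a membrane protein of arterial endothelium and lung, with a log2 difference of -3.89 at D3 (SE 1.12, edgeR adjusted p = 0.0059) in Krt8+/+ AECs. At D7 Tmem100 had 1 count over the 3 Krt8+/+ libraries against 87 at D0 (edgeR adjusted p = 8.5e-04). Clec14a, an endothelial lectin, had 2 against 38 (edgeR adjusted p = 0.025). Eng, which encodes the TGF-β co-receptor endoglin, rose from 1.00 ± 0.792 CPM (SD, n = 3) at D0 to 14.7 ± 11.8 CPM (SD, n = 3) at D7 (log2 difference 3.83, SE 0.69, edgeR adjusted p = 7.0e-05). S1pr1, the sphingosine-1-phosphate receptor, was higher at D1 (2.73, SE 1.09, edgeR adjusted p = 0.040) and D3 (3.14, SE 1.09, edgeR adjusted p = 0.020). Ptprb, which encodes the phosphatase VE-PTP that acts on TIE2 and VE-cadherin, had 50 counts over the 3 Krt8+/+ libraries at D0, 1 at D1, 55 at D3, and 351 at D7. It was called lower at D1 (edgeR adjusted p = 0.0032). Like Kdr it was low at D1 and present at D3, but unlike Kdr it was highest at D7.

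Esam, an adhesion molecule of endothelial cells and platelets, was named after its values were seen. The reason was that it held most of the summed level of the 23 genes at D0. It was at 210 ± 12.9 CPM (SD, n = 3) in Krt8+/+ AECs at D0, 62.4 ± 35.7 at D1, 37.8 ± 8.91 at D3, and 54.2 ± 15.5 at D7. The fall of Esam was called on each day (edgeR adjusted p = 0.0010, 3.7e-05, and 3.0e-04). The transcription factor genes Sox17 and Erg, which mark endothelium, were at or under 0.154 CPM in every group mean. Fli1, another transcription factor gene of this list, was higher at D1 than at D0 in Krt8+/+ AECs (log2 difference 2.54, SE 0.80, edgeR adjusted p = 0.011).

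Of the tested markers of single vessel types, 1 of 2 general capillary, 3 of 5 aerocyte, 3 of 5 artery, 1 of 2 vein, and 1 of 2 lymphatic genes were called at D7 in Krt8+/+ AECs, where 58.8% of all genes were. Among 4 general capillary genes, Plvap, which encodes the protein of fenestral diaphragms, fell in Krt8+/+ AECs at D3 (log2 difference -2.66, SE 0.87, edgeR adjusted p = 0.014) and D7 (-3.35, SE 0.93, edgeR adjusted p = 0.0039), and the summed level of the 4 was at most 5.34 CPM in any library. Of 5 aerocyte genes 1, 0, and 2 rose and 1, 1, and 1 fell at D1, D3, and D7. In these comparisons 54.7%, 54.0%, and 58.8% of all genes were called. Car4, a carbonic anhydrase, was higher at D1 (2.79, SE 1.04, edgeR adjusted p = 0.028) and fell by D7, from 43 to 3 counts over the 3 Krt8+/+ libraries (edgeR adjusted p = 0.025). Of 5 artery genes 1 rose at each time, Efnb2, which encodes ephrin-B2 and is also known in epithelia, from 27.9 ± 2.51 to 178 ± 23.1 CPM (SD, n = 3) at D7 (log2 difference 2.67, SE 0.21, edgeR adjusted p = 1.5e-09). The artery genes Hey1 and Gja5 were lower at D7 (-3.65 and -5.00, edgeR adjusted p = 0.0043 and 0.012).

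Vein and lymphatic lists were led by genes that other cells also express. Ephb4, the ephrin-B2 receptor, fell at D1 (log2 difference -1.77, SE 0.19, edgeR adjusted p = 1.6e-07). At D3 it was called lower with TMM scaling (-0.52, SE 0.18, edgeR adjusted p = 0.020) but lay at 0.083 with unscaled totals. Nr2f2, the transcription factor COUP-TFII, fell at D1 (-1.05, edgeR adjusted p = 1.5e-04) and rose at D7 (0.74, edgeR adjusted p = 0.0024). The venous marker Ackr1 was at or under 0.048 CPM in every group mean. Of 6 lymphatic genes 2 were tested, and 1 was called on each day, Flt4, which encodes VEGFR3. It went from 2 counts over the 3 Krt8+/+ libraries at D0 to 51 at D1, 722 at D3, and 1955 at D7 (edgeR adjusted p = 1.8e-04, 5.7e-09, and 2.0e-10). Krt8-/- libraries held 1, 81, 688, and 2351 Flt4 counts. Flt4 counts were thus higher on each later day, unlike those of Kdr, while the lymphatic markers Lyve1 and Prox1 stayed at or under 1.49 CPM in every group mean.

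The ligands of these receptors were measured from a list of 14 ligands, co-receptors, and processing enzymes, all of them tested. At D1, D3, and D7, 3, 5, and 5 rose and 5, 6, and 6 fell in Krt8+/+ AECs, with median log2 differences of -0.25, -1.18, and -1.46. Among all tested genes 54.7%, 54.0%, and 58.8% were called in these comparisons, with medians of 0.00, -0.00153, and 0.00. Edn1 encodes endothelin-1, a ligand of the endothelin B receptor, and was at 1.07 ± 0.868 CPM at D0, 85.7 ± 33.0 at D1, 62.3 ± 14.4 at D3, and 144 ± 48.7 at D7 in Krt8+/+ AECs (SD, n = 3). Its log2 difference from D0 was 6.38 at D1 (SE 0.52, edgeR adjusted p = 5.8e-09) and 7.13 at D7 (SE 0.53, edgeR adjusted p = 7.6e-10). Edn3, the endothelin that acts mainly through the B receptor, went the other way, from 49.0 ± 7.30 to 0.50 ± 0.437 CPM (SD, n = 3) at D7 (log2 difference -6.54, SE 0.66, edgeR adjusted p = 5.0e-08). Pgf, a ligand of VEGFR1, rose from 0.711 ± 0.286 to 17.0 ± 5.65 CPM (SD, n = 3) at D7 (log2 difference 4.63, SE 0.63, edgeR adjusted p = 2.3e-06). Between genotypes 0 of the 14 were past 0.05 by edgeR on each day.

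Summed levels placed the 8 genes beside markers of other cells. The 8 genes added up to 18.8 to 35.3 CPM in a library at D0, 4.98 to 11.8 at D1, 8.80 to 20.1 at D3, and 2.57 to 5.04 at D7. Without Kdr and Tek the other 6 added up to 2.77 to 8.78 CPM at D0, 1.87 to 7.20 at D1, 0.542 to 2.3 at D3, and 0.857 to 2.12 at D7. The higher sum at D3 was thus that of Kdr. Among the other 6, Cldn5, Emcn, and Pecam1 had 2, 0, and 2 counts over the 6 libraries at D3. In the sums for all 8 genes, replicate 1 was highest at D0 (28.4 and 35.3 CPM) and D1 (11.8 and 11.2 CPM).

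Markers of other cell types moved over the same days. The 8 fibroblast and pericyte genes summed to 295 to 986 CPM at D0, 95.3 to 258 at D1, 643 to 1809 at D3, and 865 to 3319 at D7. Their sum was thus also lower at D1 and higher at D3. From D3 to D7 it fell in replicates 1 and 2 of Krt8+/+ and in replicate 2 of Krt8-/- AECs. In replicate 1 of Krt8-/- AECs the sum hardly moved, at 991 CPM at D3 and 987 CPM at D7. In replicate 3 the sum rose, from 1020 to 1971 CPM in Krt8+/+ and from 643 to 3319 CPM in Krt8-/- AECs. Of the 8 genes, 0, 4, and 4 rose and 4, 1, and 3 fell in Krt8+/+ AECs at D1, D3, and D7. Among all tested genes 54.7%, 54.0%, and 58.8% were called in these comparisons. The 7 macrophage genes summed to 7.49 to 42.0 CPM at D0, 20.0 to 169 at D1, 16.8 to 122 at D3, and 6.44 to 141 at D7, with replicate 3 lowest on every day, and 1, 0, and 0 of them rose. The 7 leukocyte and lymphocyte genes summed to 17.2 to 38.1 CPM at D0 and 2.17 to 11.1 at D7. At D7 4 of 5 tested fell in Krt8+/+ AECs, where 30.2% of all tested genes were called downward. The 3 mesothelial genes summed to 48.4 to 165 CPM at D0 and 875 to 2450 at D7, where Msln rose and Upk3b and Wt1 fell in Krt8+/+ AECs (edgeR adjusted p = 3.3e-08, 7.6e-07, and 0.016).

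Platelets and red cells, which can travel with blood vessels, were also looked for. Among 6 platelet genes, Ppbp, a chemokine, rose at D7 (log2 difference 6.94, SE 1.29, edgeR adjusted p = 1.0e-04) and Pf4, platelet factor 4, fell (-4.21, SE 1.34, edgeR adjusted p = 0.010) in Krt8+/+ AECs, while the platelet glycoprotein genes Gp9, Gp1ba, and Gp1bb were at or under 0.31 CPM in every group mean. The 4 erythroid genes summed to 0.0773 to 5.47 CPM at D0, with the highest value in replicate 2, 1.35 to 7.00 at D1, 2.43 to 7.75 at D3, and 0.114 to 0.545 at D7. The 1 that was tested, Hba-a1, a hemoglobin gene that reads may share with its near-identical copy, had 1, 140, 233, and 16 counts over the 3 Krt8+/+ libraries at D0, D1, D3, and D7 and was called higher than at D0 on each later day (edgeR adjusted p = 9.2e-05, 3.4e-05, and 0.043). Krt8-/- libraries held 22, 137, 299, and 12 Hba-a1 counts. This list was thus, like Kdr, lower at D7 than at D3, but unlike Kdr it was not lower at D1 than at D0 in Krt8+/+ AECs. The part of any of these cell types in the levels of the 8 genes was not tested.

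**Figure D5:**
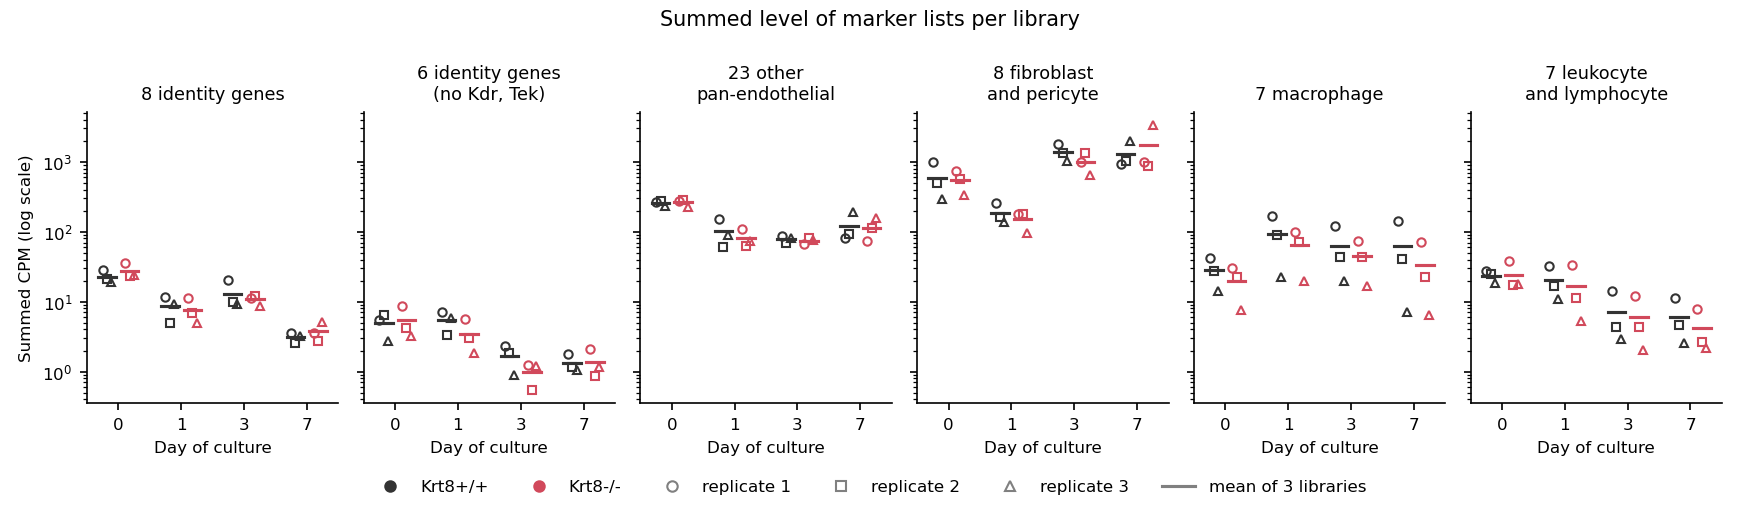
Summed CPM (vertical axis, log scale) of marker lists in each library on days 0, 1, 3, and 7 (horizontal axis), with colour for genotype, symbol shape for replicate, and a bar at the mean of 3 libraries. The 8 identity genes lie higher at D3 (8.80 to 20.1 CPM) than at D1 (4.98 to 11.8 CPM), the 6 without Kdr and Tek do not (0.542 to 2.3 CPM after 1.87 to 7.20), and the fibroblast and pericyte list lies far above both on every day.

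Over the 24 libraries, the genes whose log2 CPM ran closest to the mean standardised profile of the 5 tested members were Fmo2 (Pearson r = 0.92), Dync2h1 (0.91), Zap70 (0.91), C4b (0.91), and Nhlrc4 (0.91). Dnah9, Stmnd1, Ulk4, Ccdc157, and Pltp followed, at 0.90. After the group means were subtracted, so that only deviations among replicates counted, Gas2l1 (0.85), Zfp169 (0.84), and Pamr1 (0.84) came first, and C4b was among the first 10 in both. For Kdr alone, chosen after the values were seen, the closest were Wdr90 (0.92), Il1r1 (0.91), and Gata5 (0.91), and for Pecam1 alone Tcp11l2 (0.97), Hexim1 (0.96), and Fdft1 (0.96). None of the closest 3 was shared by the Kdr and Pecam1 profiles. These correlations describe libraries that share days and replicates, and no p is given.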

How the data were processed

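The authors deposited 1 table of raw counts per gene for 24 libraries, without normalization. The submitters' notes name cutadapt 2.3, STAR 2.7.8a, RSEM 1.3.3, and GRCm38. Annotation release, strand setting, and rounding: not given in the sources used here. Of the 55426 entries, 55421 carry a mouse gene identifier, and GENCODE M21 named 55154; 5 reporter rows had 0 counts. Replicate numbers follow the labels, in which each number has 1 batch, coded as a date.

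The tools were edgeR 4.0.16 (on limma 3.58.1) and DESeq2 1.42.0, under R 4.3.3. After filterByExpr (min.count 10, min.total.count 15), 18046 genes were kept and scaled by TMM, and 1 quasi-likelihood model with 8 groups (16 residual degrees of freedom) gave the tests, with Benjamini-Hochberg adjustment across all kept genes and a threshold of 0.05. CPM used kept-gene totals multiplied by TMM factors, and likeness used log2 CPM with a prior count of 2. Intervals of count ratios are exact binomial. The total count per library, 10184439 to 19483386, makes 3 counts equal to 0.170 to 0.332 CPM. No library pair within a group was a duplicate (chi-square per gene 9.44 to 109).

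Libraries sharing a batch are paired by the labels, and counts of replicates higher or lower used this pairing. The main edgeR model held no batch term and treated the libraries of a group as unpaired. The correlation of paired deviations was -0.0345 to 0.548. The alternatives were DESeq2 size factors, library totals, the DESeq2 test, no filter, batch as a block, only the groups compared, and each replicate left out, for which filter and factors were recomputed. The members and lists were chosen with earlier results of these data known. From each other list, up to 3 genes per comparison past 0.05 with the largest difference and at least 1 CPM in a group were eligible to be named, for Krt8+/+ AECs. The steps D1 to D3 and D3 to D7, the sum without Kdr and Tek, and the likeness to single genes were added after the values were seen. On simulated counts for D1 against D0 in Krt8+/+ AECs (18046 genes), 76 of 100 genes changed 4-fold and 49 of 100 changed 2-fold were recovered, with 4 false calls; for Krt8-/- against Krt8+/+ AECs at D0, 81, 44, and 3. P values measure only the spread between these replicates.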

Additional observations from a re-analysis of the deposited data

Results flagged for a closer look

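The genotype difference of Tek had opposite signs at D0 and later. At D0 the Krt8-/- library was lower than the Krt8+/+ library in 3 of 3 replicates, and at D1, D3, and D7 it was higher in 3 of 3. The change in the genotype difference from D0 was 1.71 at D1, 1.20 at D3, and 1.52 at D7 on the log2 scale (SE 0.95, 0.94, and 1.01). None of these passed the test of the change itself, with unadjusted p of 0.086, 0.22, and 0.15 in the edgeR model for Tek and an edgeR adjusted p of 1.0 for each. The D0 difference rests on 181 Tek counts over the 3 Krt8+/+ and 104 over the 3 Krt8-/- libraries.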

How the results depend on the processing

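Low counts set the limit: the 8 genes together held 31 to 491 counts in a library, and Cdh5, Cldn5, and Emcn could not be tested with the filter on. The number of members past 0.05 was unchanged under DESeq2 size factors in every comparison. With library totals it was 1 in place of 2 for D3 against D0 (Pecam1 kept) and 3 in place of 4 for D7 against D0 (Ednrb lost) in Krt8-/- AECs, and the DESeq2 test also gave 3 for the latter. With library totals the summed level of the 8 genes in Krt8+/+ AECs at D0 was 17.6 CPM. Without the filter it was 2 in place of 1 for D1 against D0 in Krt8-/- AECs (Cdh5 added), 3 in place of 2 for D3 against D0 in both genotypes (Cdh5 added in Krt8+/+, Cldn5 in Krt8-/- AECs), and 5 in place of 4 for D7 against D0 in both (Cldn5 added). With only the groups compared it was 3 in place of 4 for D7 against D0 in Krt8+/+ AECs (Ednrb lost), 1 in place of 2 for D3 against D0 (Kdr) and 2 in place of 4 for D7 against D0 (Kdr and Tek) in Krt8-/- AECs, and for D7 against D1 it was 1 in place of 2 in Krt8+/+ (Pecam1) and 2 in place of 1 in Krt8-/- AECs (Tek added). With batch as a replicate block it was 2 in place of 1 for D7 against D1 in Krt8-/- AECs (Ednrb added), and the block changed no other number of members. The causes were not tested.

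Leaving out 1 replicate at a time gave 1 to 2 members for D1 and for D3 against D0 and for D7 against D1 in both genotypes, and for D3 against D1 in Krt8-/- AECs. It gave 3 to 5 for D7 against D0 in Krt8+/+ and 3 to 4 in Krt8-/- AECs, and 0 to 1 for D7 against D3 in both genotypes. Between genotypes it gave 0 on every day.

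Small differences changed sign. With library totals the log2 difference of Vwf in Krt8+/+ AECs was 0.22 at D1 and 0.42 at D3, that of Kdr at D3 0.32, that of Ephb4 at D3 0.083, and in Krt8-/- AECs that of Pecam1 at D1 was 0.38 and that of Vwf at D7 0.13. For Pecam1 at D1 in Krt8-/- AECs the DESeq2 test gave 0.0012 and only the groups compared gave 0.019. For Ednrb at D1 in Krt8-/- AECs the block gave -0.14, and for Vwf from D1 to D3 in Krt8-/- AECs the DESeq2 size factors gave -0.00052.

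With 1 replicate left out the log2 difference from D0 in Krt8+/+ AECs ranged from -0.69 to 0.36 for Vwf at D1, -0.41 to 0.32 for Vwf at D3, and -0.058 to 1.04 for Ednrb at D1. In Krt8-/- libraries it ranged from -0.37 to 0.25 for Pecam1, -1.57 to 0.16 for Vwf, and -0.93 to 0.54 for Ednrb at D1, and from -0.84 to 0.32 for Vwf at D7. Between genotypes the ranges were -0.43 to 1.26 for Pecam1, -1.31 to 0.46 for Vwf, and -0.11 to 0.83 for Ednrb at D0, -0.039 to 0.54 for Kdr and -1.14 to 0.49 for Ednrb at D1, -0.71 to 0.21 for Kdr and -0.91 to 3.57 for Ednrb at D3, and -0.20 to 0.66 for Kdr at D7. Between later days they were -1.77 to 0.31 for Kdr from D1 to D7 in Krt8-/-, -0.26 to 0.28 for Tek and -0.39 to 0.31 for Vwf from D1 to D3 in Krt8+/+, -0.68 to 0.65 for Vwf from D1 to D3 in Krt8-/-, and -3.17 to 0.092 for Pecam1 from D3 to D7 in Krt8-/- libraries. None of these was past 0.05 with all replicates.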
